A study of Camponotus fellah with 299 samples.

Results

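Large ants of the carpenter ant Camponotus fellah were compared with small ants of the same colonies, in brain gene expression and in behaviour. Large ants were the 34 whose labelled body length was above a bound set between 10.44 and 10.6, and small ants those with a body length of 9.2 or less. Together they were 183 of 299 ants in all. The ants in between are called intermediate, and 10 ants without these labels entered no comparison. The labels do not state the unit of body length, so lengths are given in label units.

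Each sample was the brain of 1 ant, measured by RNA-seq, from colonies that had been tracked for a week before the ants were taken. The labels list no treatment or genetic change and name no caste, so the size classes rest on body length alone. Colony 2 gave 11 large, 63 small and 13 intermediate ants, colony 3 gave 10, 45 and 43, and colony 4 gave 13, 41 and 50. Large ants were 1 to 46 months old with a median of 16.5 months, and small ants 1 to 45 months with a median of 13 months. Per ant, the labels also give tallies of observed behaviours, a nurse-forage ratio and a maturity value from 0 to 1. Maturity was read here as the place of an ant between the nursing end (0) and the foraging end (1) of the colony, and is given as 1 minus the deposited value in colony 4, where the deposited scale runs the other way ("oriented maturity"). The ants are separate individuals, but they come from only 3 colonies, and p-values over ants measure the spread between nestmates.

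Workers of carpenter ants differ in size within a colony, and size is set before the adult emerges. Adult workers usually begin with tasks near the queen and brood and move to tasks at the entrance and outside as they age. In many ants with workers of unequal size, larger workers are known for defence, for work at the nest entrance and for carrying or storing food. Trophallaxis is the passing of liquid food from mouth to mouth. Gene identifiers in the files name a contig and a number (evm.model.ctg46.43, for example) and are not paired with gene names, so no gene function, pathway or marker of the brain could be looked up and no sequence is shown.

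The 34 large ants were 10.6 to 12.8 long (median 11.13), and the small ants 7.447 to 9.192 (median 8.709). The nearest ants on the other side of the bounds were intermediate ants of 10.44 and 9.203. Head width, which did not choose the ants, averaged 2.36 ± 0.517 in large ants (SD, n = 34) and 1.43 ± 0.172 in small ants (SD). The classes overlapped in head width, with 4 large ants under 1.8 and 4 small ants above it. Head width also held 2 values under 1 among the labelled ants, both in intermediate ants.

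**Figure D1:**
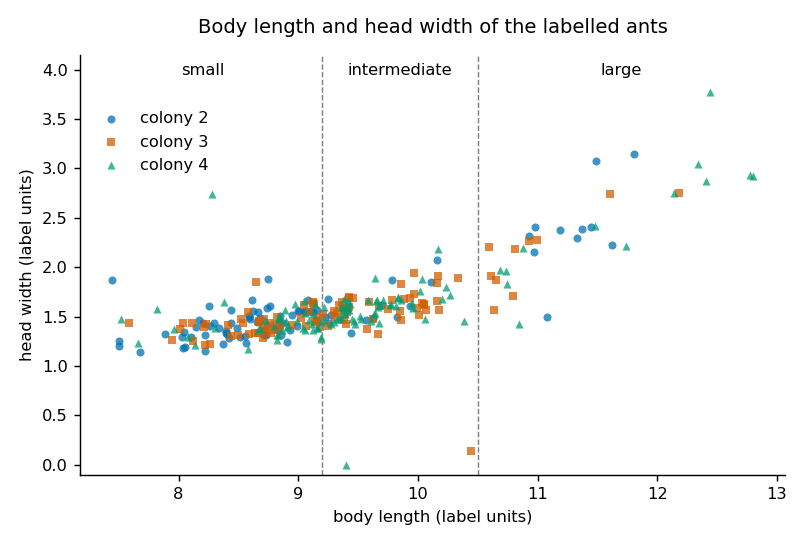
Head width (vertical axis) against body length (horizontal axis), both in label units, with 1 point for each labelled ant, coloured by colony, and dashed lines at the bounds of the size classes. Head width of the large ants ran from 1.429 to 3.771, and 30 of the 34 were at 1.8 or more.

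Library totals overlapped between the size classes. They ran from 20.4 to 63.1 M counted reads in large ants (M, 1e+06 reads, median 38 M) and from 21.6 to 73.2 M in small ants (median 38.8 M), a log2 difference of -0.08 (two-sided permutation test within colony, p = 0.179). The highest correlation of log2 expression between a large ant and any other ant was 0.986, so no large ant's library repeated another.

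Large ants were seen guarding more often than small ants. Guarding was tallied at least once in 20 of 34 large ants (58.8%, Wilson 95% interval 42.2 to 73.6%) and in 60 small ants (40.3%, 32.7 to 48.3%). The guarding tally of large ants ran from 0 to 32 with a median of 1 and a mean of 4.56 ± 7.38 (SD, n = 34). That of small ants ran from 0 to 19 with a median of 0 and a mean of 1.66 ± 3.45 (SD). A tally of 5 or more was reached by 10 of 34 large ants (29.4%) and by 18 small ants (12.1%). Intermediate ants, described without a test, had a mean of 0.906 ± 1.86 (SD), with 6.6% at 5 or more. Guarding over all ants thus did not rise steadily with body length. The classes also differed in oriented maturity, with medians of 0.2 in small, 0.0485 in intermediate and 0.669 in large ants. Below a maturity of 0.25, the mean guarding tally was 0.36 in small, 0.5 in intermediate and 0.818 in large ants. In the same order it was 3.05, 3.45 and 2.9 from 0.25 to 0.75, and 2.96, 1.05 and 9 above 0.75. A trend with length at equal maturity was not tested. The ranges of the guarding tally overlapped throughout, and 14 large ants were never seen guarding. On the scale of log2(tally + 1), the difference within colonies was 0.72 (two-sided permutation test of size within colony, p = 0.00286, adjusted p = 0.0343 over 12 measures), and guarding was the only measure of the 12 that passed.

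The difference in guarding was largest in colony 2. There the guarding tally averaged 7.82 ± 10 in large ants (SD, n = 11), with 8 of 11 seen guarding and single ants at 32, 18 and 14, against 1.7 in small ants (n = 63). In colony 3 it averaged 2.4 ± 3.89 in large ants (n = 10) and 1.62 in small ants (n = 45), and in colony 4 it averaged 3.46 ± 6.29 in large ants (n = 13) and 1.66 in small ants (n = 41). Tested alone, colony 2 passed (permutation test, adjusted p = 0.0105), and colonies 3 and 4 did not (adjusted p = 0.74 and 0.512). The permutation test of unequal differences between colonies gave p = 0.0807 for guarding (adjusted p = 0.229), so the colonies were not shown to differ.

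Age and position differed less clearly between the size classes. Age averaged 19 ± 10.8 months in large ants and 14.4 ± 9.95 months in small ants (SD), a difference of 4.71 months within colonies (permutation test, p = 0.0141, adjusted p = 0.0847). This difference was not alike in the colonies (permutation test of unequal differences, adjusted p = 0.0239): it was 10.98 months in colony 2, -5.21 months in colony 3 and 6.99 months in colony 4. Oriented maturity averaged 0.535 ± 0.382 in large ants and 0.433 ± 0.419 in small ants (SD), with an adjusted permutation p of 0.198. Between the ends, from 0.25 to 0.75, stood 10 of 34 large ants (29.4%) and 19 small ants (12.8%).

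Because position and age shift with task, the measures were also compared given oriented maturity and age. With straight-line terms for oriented maturity and age taken out, large ants had lower foraging measures than small ants. The nurse-forage ratio, taken to rise with foraging, was lower by a difference of -0.172 (permutation test, p = 4e-05, adjusted p = 0.0004 over 10 measures). Trophallaxis on the foraging side was also lower (-0.43 on the log2(tally + 1) scale, adjusted p = 0.0074), and so was cleaning on the foraging side (-0.27, adjusted p = 0.0299). The cleaning difference did not pass with the tally as deposited (-0.46, adjusted p = 0.0722) or for large ants of length 11 or more (-0.31, adjusted p = 0.0837). Guarding was 0.46 higher on the same scale but did not pass (permutation test, p = 0.032, adjusted p = 0.08), and passed with the tally as deposited (2.21 higher, adjusted p = 0.0196). Nest trophallaxis, brood care, nest grooming, nest cleaning, queen attending and foraging-side grooming did not pass either. Taken alone, colonies 3 and 4 did not pass for the ratio (-0.18 and -0.07, adjusted p = 0.187 and 0.508), and in colony 4 the differences in foraging-side trophallaxis and cleaning were 0.15 and 0.07, the other way.

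Few large ants were seen at tasks of the foraging side. A tally of foraging-side trophallaxis was found in 2 of 34 large ants (5.88%, 1.63 to 19.1%) and in 31 small ants (20.8%, 15.1 to 28%). Foraging-side cleaning was seen in 2 of 34 large ants and in 25 small ants. Foraging-side grooming was seen in 0 of 34 large ants, which allows a share of up to 8.82% by a limit of 3 counts (Wilson upper bound 10.2%), and in 8 small ants (5.37%). These intervals cover counting error only. A nurse-forage ratio above 0.5 was found in 3 of 34 large ants (8.82%) and in 32 small ants (21.5%), and the 3 large ants were all in colony 4, with ratios of 0.9989, 0.9414 and 0.8143. In colony 4 this was 23.1% of large ants and 17.1% of small ants, and foraging-side trophallaxis was seen there in 15.4% of large ants and 7.32% of small ants. Without maturity and age, foraging-side trophallaxis, cleaning, grooming and the ratio did not pass (permutation tests, adjusted p = 0.198, 0.228, 0.353 and 0.198).

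At high oriented maturity (above 0.75), nurse-forage ratios were lower in large than in small ants over the colonies together. The 13 large ants there had nurse-forage ratios of 0 to 0.999 with a median of 0.0189 and a mean of 0.223, and the 55 small ants had ratios of 0 to 0.977 with a median of 0.591 and a mean of 0.508. This was a difference of -0.29 within colonies (permutation test, p = 0.00348, adjusted p = 0.0418). Guarding tallies in the same ants had a median of 7 and a mean of 9 ± 10 in the 13 large ants, and a median of 1 and a mean of 2.96 ± 4.39 in the 55 small ants (SD), which did not pass after adjustment (p = 0.0238, adjusted p = 0.115). The 19 intermediate ants of high maturity, described without a test, had a mean guarding tally of 1.05 and a median ratio of 0.924. Neither measure thus changed steadily with body length. In colony 2, 8 of the 13 large ants of high maturity were found, and none of the 11 large ants of that colony had a ratio above 0.0509. Colony 3 had only 1 large ant of high maturity. In colony 4, 3 of 4 large and 7 of 9 small ants of high maturity had a ratio above 0.5, so no such difference was seen there. At low maturity (below 0.25), all 11 large ants were seen at brood care, with a median tally of 9, against 64 of 75 small ants, with a median of 7. No measure passed between the size classes at low maturity (adjusted p for brood care 0.895).

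**Figure D2:**
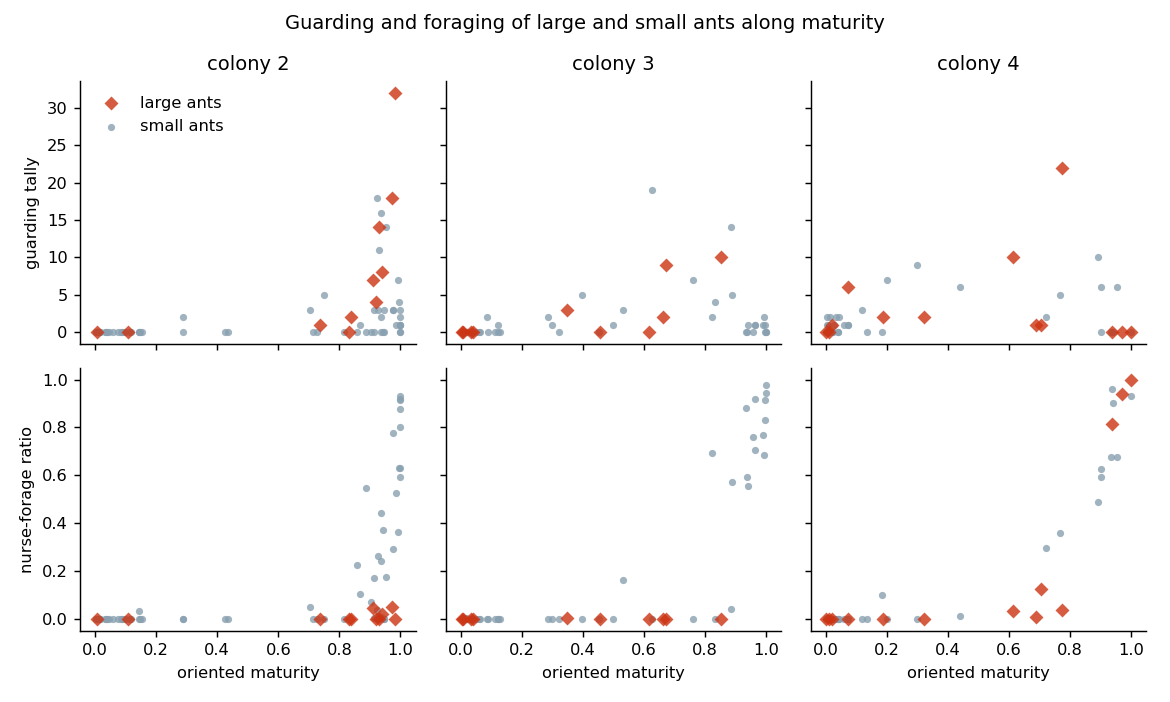
Guarding tally (top row) and nurse-forage ratio (bottom row) of each ant against oriented maturity, which runs from 0 to 1, in colonies 2, 3 and 4 from left to right, with large ants as red diamonds and small ants as grey circles. Large ants of colony 2 above a maturity of 0.75 reach guarding tallies up to 32 with ratios of at most 0.0509, and the 3 large ants with ratios above 0.5 are in colony 4.

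Brain expression differed between large and small ants in many gene models, mostly by little. Given colony, oriented maturity and age, 2005 of 10931 gene models tested were called (18.3%), which is an adjusted p below 0.05 in edgeR's quasi-likelihood test with Benjamini-Hochberg adjustment. Of these, 1035 (9.47% of those tested) were higher in large ants and 970 (8.87%) were lower. Fold changes are log2, large over small. The median absolute log2 fold change of the called gene models was 0.135, against 0.0636 over all tested. Only 42 called gene models were higher by more than 1 on the log2 scale, and 17 were lower by more than 1. Without colony 2 the count was 637, of which 619 were among the 2005, and without colony 4 it was 1237, of which 1069 were.

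Size was a small part of the variation between nestmates. Of the variance of log2 expression within colonies, the size class took 1.2% beyond maturity and age. In the same way oriented maturity took 1.69% and age 0.945% beyond the other terms, and guarding 0.581% beyond all of these. An unrelated term with 1 degree of freedom would take 0.556%. Variance that terms share is counted for none of them. In bulk tissue, fewer cells of a type and less RNA per cell cannot be told apart.

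The called gene models were spread over all levels of expression. Of the 1602 gene models with a median of at most 1 count per M counted reads (CPM), 6.37% were called, and of the 3639 with a median above 64 CPM, 25.7%. Among the called, 73.5% of those with 1 CPM or less were higher in large ants, and 43.1% of those above 64 CPM. Gene models higher in large ants had a median level of 39.6 CPM, those lower in large ants 72.5 CPM, and all tested gene models 33.3 CPM. These levels are medians over large and small ants together, most of them small, so level and direction of change are not fully independent. The levels are also not set per length.

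**Figure D3:**
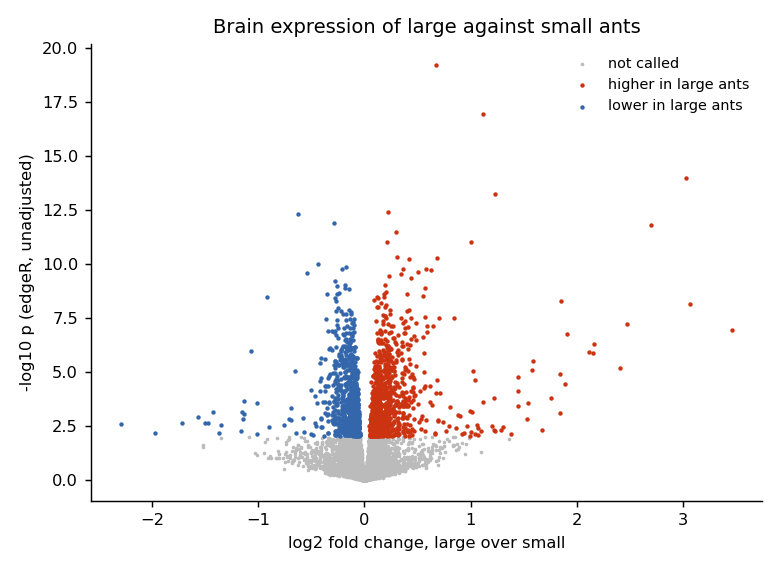
Each point is 1 of the 10931 gene models tested, with the log2 fold change of large over small ants on the horizontal axis and the unadjusted p of the edgeR test, as -log10, on the vertical axis. The 1035 called gene models higher in large ants are red, the 970 lower ones blue and the others grey, and most called points lie within 0.5 of a fold change of 0.

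Identifiers were named by size of change among called gene models with a median of at least 4 CPM and 1 sign in all 3 colonies, and 2 higher and 2 lower ones are given. The second-highest fold change by this rule was 0.70. All but 1 of the 42 gene models higher by more than 1 therefore had a lower median or unequal signs between colonies. The lowest fold changes by the rule were -1.07 and -1.01. The level of evm.model.ctg46.43 ran from 47.8 to 411 CPM in large ants with a median of 179 CPM, and from 4.78 to 242 CPM in small ants with a median of 96.1 CPM. Of the large ants, 28 of 34 stood above the small ants' median, and the groups overlapped. Its log2 fold change was 1.12 ± 0.12 (SE, edgeR adjusted p = 5.8e-14), and it was 1.10, 1.22 and 0.78 in colonies 2, 3 and 4 alone, called in each. Its fold change was 0.84 ± 0.17 (edgeR adjusted p = 0.00758) between the 14 large and 89 small ants that were never seen guarding. It was 1.05 ± 0.24 at high maturity (above 0.75, adjusted p = 0.00281) and 0.57 ± 0.16 at low maturity (below 0.25, adjusted p = 0.226, not called). A change of this size difference with maturity, tested itself, did not pass (edgeR adjusted p = 0.511). The level of evm.model.ctg46.43 also fell with oriented maturity in the intermediate ants, which are in neither size class, by -1.83 ± 0.22 log2 from 0 to 1 (edgeR adjusted p = 8.04e-10).

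The median level of evm.model.ctg1.357 was 154 CPM in large ants (60.8 to 450) and 97.2 CPM in small ants (18.3 to 369). It was above the small ants' median in 30 of 34 large ants, and its ranges overlapped. Its log2 fold change was 0.70 ± 0.12 (SE, edgeR adjusted p = 4.83e-06), with 1.05, 0.84 and 0.46 in colonies 2, 3 and 4 alone, of which the last was not called (edgeR adjusted p = 0.125). It was called at high maturity (0.90 ± 0.21, edgeR adjusted p = 0.00384) and not at low maturity (0.32 ± 0.20, adjusted p = 0.721). A change of this size difference with maturity, tested itself, did not pass (edgeR adjusted p = 0.811). Levels above those of any large ant occurred in intermediate ants of colony 3, up to 1303 CPM.

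The lower gene model evm.model.ctg1.273 had 11.2 to 216 CPM in large ants with a median of 53.5 CPM, and 6.73 to 364 CPM in small ants with a median of 94.3 CPM. Only 3 of 34 large ants stood above the small ants' median, although small ants also reached the lowest level. Its log2 fold change was -1.07 ± 0.21 (SE, edgeR adjusted p = 5.91e-05), and -0.81, -1.32 and -1.33 in colonies 2, 3 and 4 alone, called in colony 4 (edgeR adjusted p = 0.0199). At high maturity its median was 76.2 CPM in the 13 large ants and 160 CPM in the 55 small ants, and at low maturity it was 39.9 CPM in the 11 large ants and 60.8 CPM in the 75 small ants. The difference was called at high maturity (-1.16 ± 0.28, edgeR adjusted p = 0.00524) and not at low maturity (-0.54 ± 0.33, adjusted p = 0.721). Its change with maturity, tested itself, did not pass (edgeR adjusted p = 0.743).

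The call of the other lower gene model, evm.model.ctg57.66, rested on a single ant. Its medians were 3.9 CPM in large ants (1.63 to 42.1) and 4.01 CPM in small ants (1.16 to 585), and 17 of 34 large ants stood above the small ants' median. Its log2 fold change was -1.01 ± 0.27 (SE, edgeR adjusted p = 0.00379). Without the small ant of colony 3 at 585 CPM it was -0.53 and not called (edgeR adjusted p = 0.0764).

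**Figure D4:**
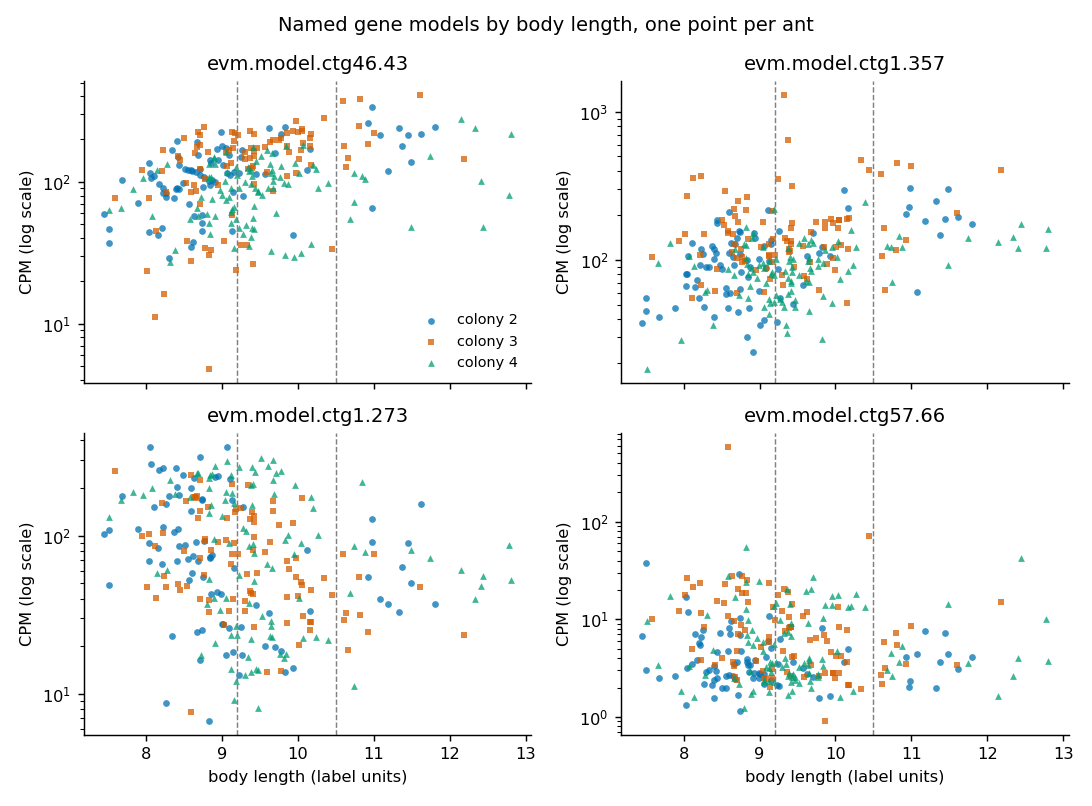
Level of the 4 named gene models in CPM on a log axis against body length in label units, with 1 point per ant coloured by colony and dashed lines at the bounds of the size classes. The medians of evm.model.ctg46.43 are 179 CPM in large and 96.1 CPM in small ants, and the ant at 585 CPM stands alone for evm.model.ctg57.66.

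Fitted apart, the colonies gave unequal counts of calls. In colony 2, 699 gene models were called (6.39% of 10931), with 316 higher (2.89%) and 383 lower (3.5%) in large ants. In colony 3, 65 were called (0.595%), with 45 higher (0.412%) and 20 lower (0.183%), and in colony 4, 764 (6.99%), with 465 higher (4.25%) and 299 lower (2.74%). In colony 3, 91 higher and 65 lower were called with log2 library size in the model, and 77 higher and 24 lower with no filter on low counts. Each colony has its own large and small ants, so these counts share no library. Colonies 2 and 4 shared 212 called gene models, which is 30.3% of those of colony 2 and 27.7% of those of colony 4, and all 212 had the same sign in both. Colonies 2 and 3 shared 26, of which 25 had the same sign, and colonies 3 and 4 shared 19, all with the same sign. In all 3 colonies 12 gene models were called, each with 1 sign.

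Gene models called in 1 colony mostly had the same sign in the others. Of the 699 called in colony 2, 92.7% had the same sign in colony 3 and 91.3% in colony 4, against 75.5% and 63.5% of all tested. Of the 764 called in colony 4, 91.1% had the same sign in colony 2 and 92% in colony 3, against 63.5% and 62.2% of all tested. The 65 of colony 3 had the same sign in 90.8% of cases in colony 4, against 62.2%, but in 78.5% in colony 2, close to the 75.5% of all tested. The test of a size difference that differs between colonies called 0 gene models in edgeR, while 660 (6.04%) had an unadjusted p below 0.05. With log2 library size in the model it called 3, and with no filter on low counts 1.07% of gene models.

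The difference was called far more often among ants of high maturity. Between the 13 large and 55 small ants above 0.75, 887 gene models were called (8.11%), with 436 higher (3.99%) and 451 lower (4.13%) in large ants. Between the 11 large and 75 small ants below 0.25, edgeR called 1 (0.00915%), although 847 had an unadjusted p below 0.05, and with no filter on low counts it called 45 (0.334%). Of the 887, 86.2% had the same sign at low maturity, against 65.1% of all tested, and these comparisons share no library. The size classes above 0.75 also differed in the nurse-forage ratio, with a median of 0.0189 in large and 0.591 in small ants. The ratio was a term in no fit, so size and foraging cannot be told apart behind the 887 calls. Counts at the ends do not test a difference between them. A model with a term for size by maturity called 1 gene model (0.00915%) and gave 824 an unadjusted p below 0.05 (7.54%), and with no filter on low counts it called 1.03%, 72 higher and 70 lower.

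The gene models behind these counts of 1 were named after their values were seen. The low-maturity call was evm.model.ctg56.53, with 1.33 to 5.35 CPM in the 11 large ants (median 3.14) and 0.657 to 4.95 CPM in the 75 small ants (median 1.98). Its log2 fold change there was 0.76 ± 0.15 (SE, edgeR adjusted p = 0.017), and 0.68 once the highest ant was left out (adjusted p = 0.0454). At high maturity its medians were 0.843 CPM in large ants and 1.07 CPM in small ants, with a fold change of 0.25 ± 0.23 after adjustment for colony, maturity and age. Its term for size by maturity did not pass (-0.60 ± 0.29, edgeR adjusted p = 0.631). Over all large and small ants it was also called (0.44 ± 0.11, edgeR adjusted p = 0.00151).

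The size-by-maturity call was evm.model.ctg26.206, which was also called over all large and small ants (0.13 ± 0.03, edgeR adjusted p = 0.00041). At high maturity its quartiles were 108.3 and 118.4 CPM in large ants (median 110.7) and 84.53 and 100.3 CPM in small ants (median 93.01), and its log2 fold change was 0.31 ± 0.05 (SE, edgeR adjusted p = 4.69e-05). At low maturity its quartiles were 81.77 and 96.34 CPM in large ants (median 88.92) and 85.78 and 97.11 CPM in small ants (median 91.48), and its fold change was -0.02 ± 0.05. The term was 0.34 ± 0.07 (edgeR adjusted p = 0.0362), and once the highest ant was left out it was again 0.34 ± 0.07, with an adjusted p of 0.0557, just above the threshold.

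Ants of intermediate length gave a look at body length in animals outside both classes. Among these ants, edgeR called 0 gene models for a slope on body length, with 1204 (11%) at an unadjusted p below 0.05. It called 1 with log2 library size in the model and 71 with no filter on low counts. Of the 2005 gene models called between large and small ants, 1635 (81.5%) had a slope of the same sign in intermediate ants, against 64.6% of all tested. Across the 2005, the Spearman correlation of fold change and slope was 0.63, against 0.34 over all tested, described over gene models, which are not independent. Among small ants alone 187 gene models were called for length (1.71%), of which 57.8% were among the 2005, against 18.3% of all tested, and these small ants also entered that comparison. The count was 98 with log2 library size in the model and 346 with no filter on low counts. Among the 34 large ants 0 were called, with 425 (3.89%) at an unadjusted p below 0.05.

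**Figure D5:**
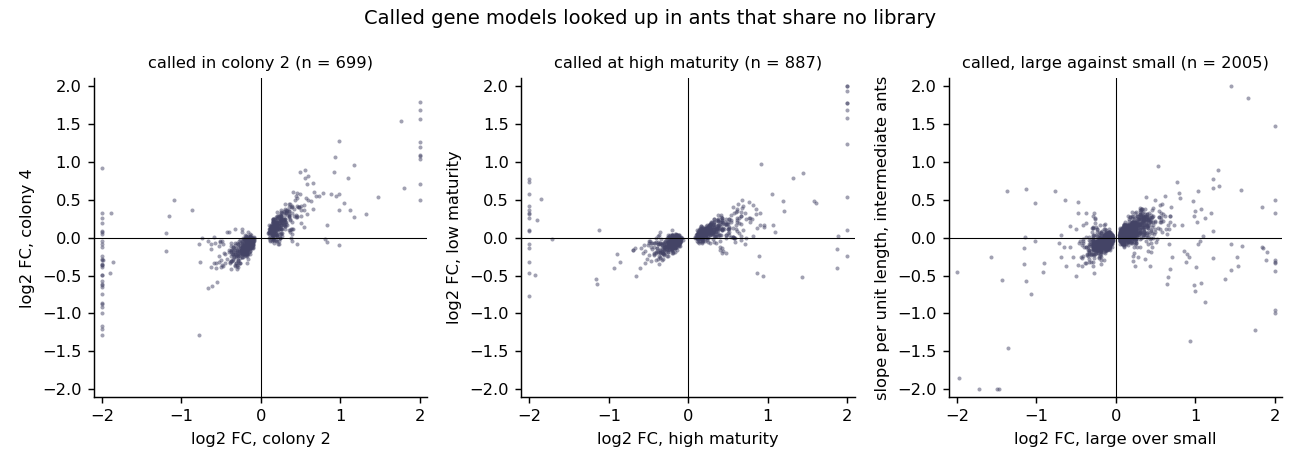
Each point is a called gene model, with its log2 fold change (FC) of large over small ants on the horizontal axis and its value in ants that share no library with those on the vertical axis, both drawn at 2 or -2 where they lie beyond. In colony 4, 91.3% of the 699 called in colony 2 kept their sign, at low maturity 86.2% of the 887 called at high maturity did, and in intermediate ants 81.5% of the 2005 did.

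Guarding itself was called for no gene model. Among the 34 large ants edgeR called 0 for a slope on log2(guarding tally + 1), with 957 (8.75%) at an unadjusted p below 0.05 and 3 called with log2 library size in the model. With guarding added as a term to the comparison of large and small ants, edgeR called 2051 for size, of which 1906 were among the 2005, and 0 for guarding (913 at an unadjusted p below 0.05, 8.35%). The count of calls for size nevertheless differed between ants seen guarding and ants never seen guarding. Between the 20 large and 60 small ants seen guarding, 1960 were called (17.9%), with 1063 higher (9.72%) and 897 lower (8.21%) in large ants, and between the 14 large and 89 small ants never seen guarding, 23 were called (0.21%). Of the 1960, 86.3% had the same sign in the ants never seen guarding, against 63.4% of all tested. The split by guarding was also a split by maturity. At low maturity, 3 of 11 large and 14 of 75 small ants were seen guarding. At high maturity, 9 of 13 large and 34 of 55 small ants were. Guarding and maturity therefore cannot be told apart behind the counts of 1960 and 23. Whether the size difference itself depends on guarding was not tested.

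Maturity was a covariate of the size comparison, and its direction was read in other animals. In the intermediate ants, 466 gene models were called for oriented maturity (4.26%), of which 156 (33.5%) were also called between large and small ants, against 18.3% of all tested. Of these 156, 99 were higher in large ants and fell with maturity, 32 were lower in large ants and rose with maturity, 18 were higher and rose, and 7 were lower and fell, so that 84% had opposite signs. Over all 2005 called gene models, 53.5% had opposite signs, against 48.4% of all tested. Of those higher in large ants 57.6% fell with maturity in intermediate ants, of those lower in large ants 50.9% did, and of all tested 48.7% did.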

How the data were processed

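RNA was extracted from single brains with Tri reagent and made into stranded mRNA libraries with a KAPA kit, per the labels' protocols. The deposited values are whole-number read counts per gene model, not normalized; STAR and featureCounts are named in the submitters' processing notes, without versions, and the genome build, annotation and strand setting are not given in the sources used here. Counts of gene models that overlap on opposite strands, or have near-identical copies, are therefore uncertain. The table holds 14664 gene models.

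Members, bounds and tests were chosen with earlier results of these data known. Gene models passing filterByExpr (minimum count 10, groups of colony by size, large and small ants) numbered 10931 and were used in every fit but that without a filter. The main test was edgeR's (4.0.16, R 4.3.3) quasi-likelihood F-test with robust dispersions and TMM normalization, on large and small ants, with colony, oriented maturity and age as covariates and Benjamini-Hochberg adjustment over all gene models (adjusted p below 0.05). Standard errors were taken from the fold change and its F statistic. CPM are counts per M counted reads of a library. The main fit, the test of a difference between colonies and the guarding slope were tested on simulated data. Counts were drawn apart for each gene model, without variation shared between gene models beyond the covariates. The main fit recovered 61.2% of log2 differences of 0.25, with 5.81% of its calls false. The test between colonies recovered 53.7% of differences of 0.5 in colony 4 only, and the guarding slope test 52.2% of slopes of 0.1. Counts of 0 in these tests can therefore miss such differences. Named gene models were the 2 highest and 2 lowest fold changes among those called, with a median of at least 4 CPM and 1 sign in each colony.

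Tallies were compared as log2(tally + 1), and ratio and age as labelled and oriented maturity, by two-sided permutation of size within colony (100000 resamples, smallest p 1e-05; Python 3.11.15), with Benjamini-Hochberg adjustment over 12 measures, or 10 given maturity and age, where residuals were permuted.

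Alternatives were DESeq2's size factors (RLE), no filter, DESeq2 (1.42.0), limma-voom (limma 3.58.1), other ants, bounds and covariates, and each colony left out. Chosen after seeing the data were the ants seen guarding, the maturity slope in intermediate ants, tallies at each end of maturity, the test of unequal differences between colonies, and the gene models behind 2 counts of 1 without their highest ant.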

Additional observations from a re-analysis of the deposited data

Results flagged for a closer look

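Dixon's outlier test at the 95% level was applied to the large ants of colony 3, the only colony with 10 or fewer of them. It covered 18 measures and named gene models, and 4 stood out. Chance flags about 1 in 20 such groups, and tallies and ratios with many values at 0 are flagged more readily. The largest nest cleaning tally there was 2, with the next at 1. The largest nurse-forage ratio was 0.00183, with the next at 0.000456, and both are near 0 on a scale that reaches 1. The highest level of evm.model.ctg57.66 was 15.1 CPM, with the next at 8.61 CPM, and that of evm.model.ctg56.53 was 5.35 CPM, with the next at 3.45 CPM.

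The size difference of evm.model.ctg26.206 changed with oriented maturity by 0.34 on the log2 scale from maturity 0 to 1, in a test of that change itself. The size difference in age was unequal in the 3 colonies (adjusted permutation p = 0.0239), with large ants older than small ants in colonies 2 and 4 and younger in colony 3.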

How the results depend on the processing

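The 2005 gene models called, 18.3% of those tested, stayed within 1.5 times under 15 of 20 alternatives (1550 to 2376 called, of which at least 1320 were among the 2005). The share was 5.83% without colony 2, 11.3% without colony 4, 32.2% with 3 residual components, 0.21% among ants with a guarding tally of 0 and 28.2% for continuous body length in all labelled ants. With no filter on low counts, colony 3 gave 0.761% (0.595% with the filter), the difference between colonies 1.07% (0 with it), size by maturity 1.03% and low maturity 0.334% (0.00915% each with it), and the length slopes 0.523% in intermediate, 2.52% in small and 0.0228% in large ants. With log2 library size added, colony 3 gave 1.43%, the difference between colonies 0.0274%, the length slopes 0.00915% in intermediate and 0.897% in small ants, and the guarding slope in large ants 0.0274%. The cause of these changes was not tested. No paired analysis was possible because the numbers in the labels name single ants within a colony.

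Of the named gene models, evm.model.ctg46.43 was called under all 21 alternatives (adjusted p 7.55e-20 to 0.00758), evm.model.ctg1.357 and evm.model.ctg1.273 under 20 of 21, with 0.56 and -0.82 among ants with a guarding tally of 0 (adjusted p 0.179 and 0.295), and evm.model.ctg57.66 under 13 of 21 (adjusted p 8e-04 to 0.771).

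Of 12 measures, 3 passed for large ants of length 11 or more (guarding, age and maturity), 2 in colony 2 alone, and 0 in colony 3 alone, in colony 4 alone or at low maturity. Guarding was 0.26 in colony 3, 0.41 in colony 4, 1.10 at high maturity and 0.17 at low maturity, none of which passed. Given maturity and age, 1 measure passed in colony 2 alone and 0 in colonies 3 and 4. The nurse-forage ratio was -0.18 and -0.07 there, and in colony 4 foraging-side trophallaxis and cleaning turned to 0.15 and 0.07, not called. Over the alternatives for single measures, 89 values kept direction and call, 12 lost the call, 5 gained one, 2 changed the sign of a called difference and 26 changed the sign of a difference that was called in neither. Groups of 10 to 13 large ants per colony, or 11 and 13 at the ends of maturity, limit these comparisons.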
